A study of Mus musculus with 3 samples.

Results

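The genes described here encode proteins that remodel chromatin or write, read and remove histone and DNA methylation, measured by RNA sequencing in 3 mouse hearts. They were chosen by symbol from the deposited table: the families Kdm, Kmt2, Kmt5, Setd, Setdb, Suv39h, Ehmt, Smarc, Arid1 to Arid5, Cbx and Chd, together with Ezh1, Ezh2, Eed, Suz12, Dnmt1, the Dnmt3 genes, Tet1 to Tet3, Uhrf1, Uhrf2 and Dot1l. The X- and Y-linked genes Kdm5c and Kdm5d were left out. The choice used no measured value and gave 91 of the 18038 genes in the table. All 3 samples are whole wild-type hearts of C57BL/6J mice, an inbred laboratory strain, taken on day 9 after birth, with no treatment named. They form the only group of the study, which concerns microtubule glutamylation and the coupling of heart muscle cells, so there was no second condition to compare. Replicate numbers in the labels give the names heart 1, heart 2 and heart 3. The labels do not say whether each came from a separate animal, so the spread between them may be partly technical.

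DNA in the nucleus is wound on histones, and enzymes of these families decide how accessible it is. SWI/SNF, ISWI and CHD proteins use ATP to slide or evict nucleosomes, SET domain enzymes and Dot1l add methyl groups to histone lysines, Kdm enzymes remove them, and chromobox proteins bind the methylated tails. DNMT enzymes methylate cytosine in CpG dinucleotides and TET enzymes oxidise that mark. In the heart these systems are known for their part in the change from a dividing fetal muscle cell to a non-dividing adult cell, and the days after birth fall within that change.

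Library totals were 17766501, 18643408 and 18768094 counts in hearts 1, 2 and 3. Markers of the labelled tissue were present: all 6 cardiomyocyte genes checked were detected, with Myl2, the ventricular light chain, at 26128 ± 998 TPM (SD, n = 3 hearts here and throughout). TPM is a length-scaled level with a total of 1000000 per heart. Genes that mark fibroblasts, endothelium, macrophages, red cells and vessel wall were detected too, so levels are those of a mixed tissue, in which fewer cells of a type and less RNA per cell cannot be told apart. Heart 1 stood apart in lung airway genes, with a summed level of 1616 TPM over the 5 checked, against 0.740 in heart 2 and 6.42 in heart 3, nearly all of it from Scgb1a1 and Scgb3a2. It was also the lowest in the 5 smooth muscle and pericyte genes, which summed to 721, 1295 and 1561 TPM, with the smooth muscle actin Acta2 at 303, 670.5 and 918 TPM and called variable by edgeR (adjusted p = 8.9e-09). The B cell gene Cd79a had 4, 39 and 43 counts and was called too. The 10 proliferation genes summed to 389, 455 and 340.4 TPM, and the 4 red cell genes to 6331, 6455 and 3863 TPM.

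Of the 91 chromatin genes, 88 were detected, meaning at least 1 CPM (CPM being counts scaled to a library of 1000000) in every heart, against 71.8% of all genes in the table. Those 88 had a median level of 20.02 TPM, beside 19.1 TPM for the 12958 genes detected overall. Their means ran from 1.41 TPM to 165 TPM: 55 had a mean of 10 to 50 TPM, 13 were above 50 TPM, 3 of them above 100 TPM, and 20 were under 10 TPM. Together all 91 summed to 2612, 2627 and 2417 TPM in hearts 1, 2 and 3, which is 0.255% of the transcript total. The 3 genes not detected were Dnmt3l, Chd5 and Kdm4d, and they had 1 to 23 counts per heart.

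Because these proteins act on CpG methylation and on chromatin at gene starts, their own promoters were read from RefSeq (GRCm38.p6), as the 250 bases before a start site. The strand was taken from RefSeq, since the table gives the other strand for 19 of the members matched, and the start site used was the one nearest to that end of the gene in the table where transcription starts on the RefSeq strand. A promoter was found for 73 of the 91. The median promoter held 21 CpG dinucleotides, against 13 over the promoters of 14128 genes in the table, and 63 of 73 (86.3%) held 10 or more, against 61.3%. Among genes detected in these hearts the same counts were 61 of 70 (87.1%) and 73.8%. The motif CCAAT, read on both strands, occurred in 37.0% of these promoters and 36.1% of all, and TATAAA in 2 of 73 (2.74%) and 8.28% of all. For TATAAA the shares among detected genes were 2 of 70 (2.86%) and 6.28%. Promoters of a highly expressed chromobox gene, a highly expressed SWI/SNF gene and 2 of the genes not detected are shown to compare their CpG content, with each CpG in capitals and reading 5′ to 3′ on the strand of the gene.
Cbx3: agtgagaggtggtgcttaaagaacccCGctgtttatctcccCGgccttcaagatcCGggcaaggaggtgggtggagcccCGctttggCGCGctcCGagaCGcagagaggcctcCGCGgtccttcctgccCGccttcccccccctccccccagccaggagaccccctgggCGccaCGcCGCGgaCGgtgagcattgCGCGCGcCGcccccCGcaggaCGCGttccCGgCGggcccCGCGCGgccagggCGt
Smarcd3: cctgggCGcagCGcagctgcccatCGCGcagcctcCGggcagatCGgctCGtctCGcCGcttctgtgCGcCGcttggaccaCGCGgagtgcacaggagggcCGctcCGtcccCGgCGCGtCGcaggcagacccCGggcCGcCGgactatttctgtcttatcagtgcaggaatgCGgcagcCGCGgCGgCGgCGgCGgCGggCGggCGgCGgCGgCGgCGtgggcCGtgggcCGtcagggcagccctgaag
Dnmt3l: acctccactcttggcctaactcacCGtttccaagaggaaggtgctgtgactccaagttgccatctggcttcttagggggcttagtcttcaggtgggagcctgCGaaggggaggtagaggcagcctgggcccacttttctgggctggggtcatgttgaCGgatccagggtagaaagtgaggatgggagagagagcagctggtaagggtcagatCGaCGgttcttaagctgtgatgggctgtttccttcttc
Kdm4d: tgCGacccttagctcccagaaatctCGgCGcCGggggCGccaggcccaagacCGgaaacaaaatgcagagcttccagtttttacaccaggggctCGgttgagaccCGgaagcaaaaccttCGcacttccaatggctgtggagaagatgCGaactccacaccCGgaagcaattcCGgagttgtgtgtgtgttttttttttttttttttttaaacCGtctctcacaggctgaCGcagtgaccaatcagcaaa
The Cbx3 window (chr6:51470366-51470615, plus strand) holds 29 CpG and the Smarcd3 window (chr5:24602003-24602252, minus strand) 38. The Kdm4d window (chr9:14500483-14500732, minus strand) holds 14 and the Dnmt3l window (chr10:78042037-78042286, plus strand) 5. In these windows CpG content did not separate detected genes from the rest, of which there were only 3. Chd5 was among those not detected with 21 CpG, and Dnmt1, detected at 29.2 TPM, had 2 in the window next to its table end. Some windows lay far from the table end used, as for Smarcd3 (table end 24624456) and Setd5 (table start 113077267, window from 113104685). Whether these starts are the ones used in the heart was not tested.

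**Figure D1:**
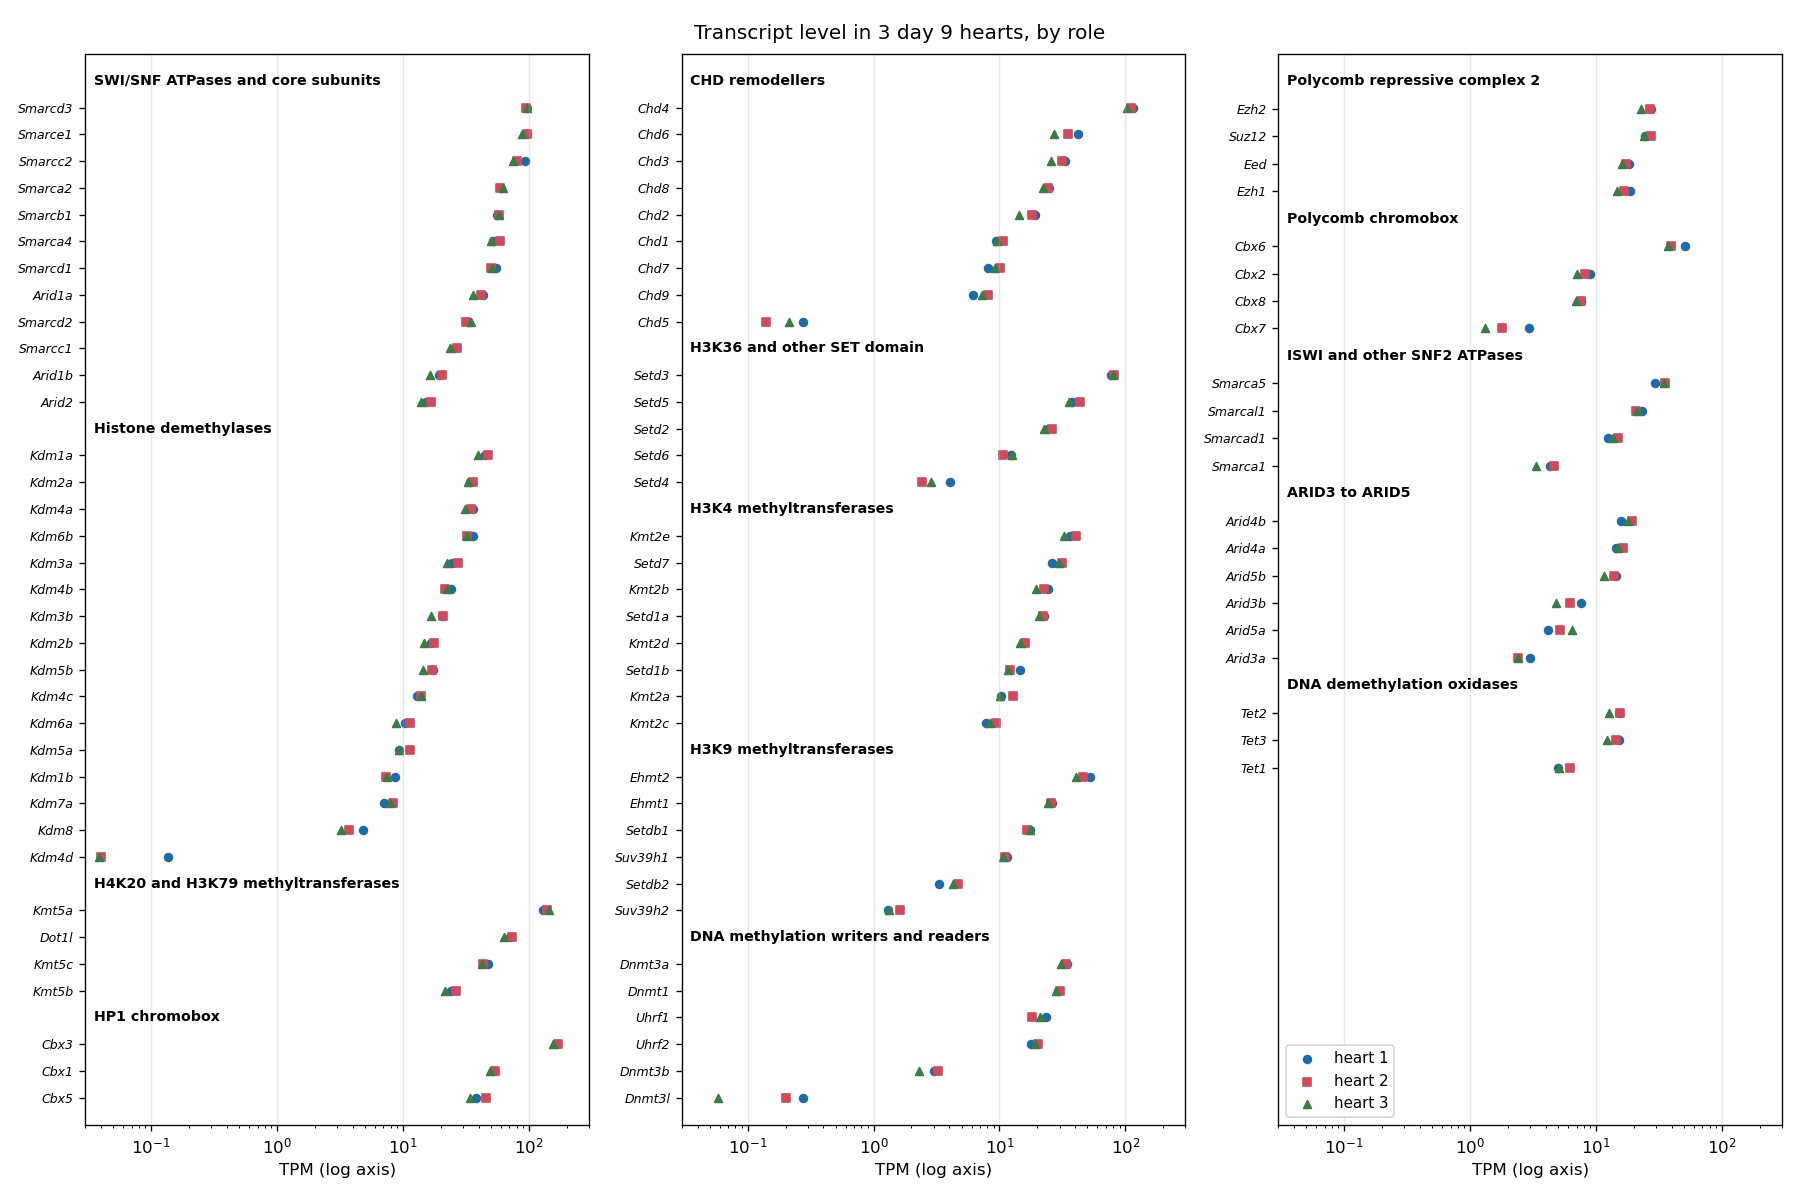
TPM (log axis) of the genes, all but 1 of the 91, in hearts 1, 2 and 3, grouped by role and ordered by mean level. Points of the 3 hearts lie close together for most genes, and Dnmt3l, Chd5 and Kdm4d stand far below the rest.

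Summed levels by role were not divided by the number of genes, which differed between roles. The SWI/SNF complex, an ATP-driven nucleosome remodeller required for heart development, had the largest summed level of the 14 roles. Its 12 ATPase and core subunit genes were all detected and summed to 646, 635 and 604 TPM, or 24.6% ± 0.420 of the level of all 91 genes. The share was 18.9% when levels were not scaled by gene length. Smarcd3, the BAF60c subunit enriched in heart muscle, led with 96.2, 94.5 and 96.8 TPM in hearts 1, 2 and 3, and its coefficient of variation of 1.27% was the smallest of the 91. Smarce1 (BAF57), at 96.2, 96.0 and 87.5 TPM, overlapped it in range. Next came Smarcc2, the scaffold BAF170, which was highest in heart 1 at 92.7 TPM against 81.0 and 74.3. Exons of Smarcd3 share 48.2% of their bases with Chpf2 on the opposite strand and its counts were fractional, so part of its reads cannot be assigned with certainty.

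The alternative ATPases of the complex, Smarca2 (BRM) and Smarca4 (BRG1), had close levels under the authors' length scaling. Smarca2 was at 60.1, 59.2 and 62.7 TPM and Smarca4 at 51.9, 59.2 and 50.03 TPM. Their log2 ratio was 0.18 ± 0.166 and was 0 in heart 2, so no order held in all 3 hearts. Smarca4 was the higher in every heart without length scaling (-0.56) and with longest transcript lengths (-0.45). The scaffold pair was unequal, with Smarcc2 3.23-fold above Smarcc1, the embryonic stem cell scaffold BAF155 (log2 ratio 1.69 ± 0.130). Smarcd3 was 1.85-fold above Smarcd1 (0.89 ± 0.0758), and Smarcd1 1.57-fold above Smarcd2 (0.65 ± 0.0973). The first of these orders depends on gene length: Smarcd1 was above Smarcd3 with longest transcript lengths (log2 ratio -0.21).

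Arid1a and Arid1b mark the canonical form of the complex and Arid2 the polybromo form. Arid1a was at 43.4, 41.7 and 35.96 TPM, 2.15-fold above Arid1b (1.10 ± 0.0716) and 2.65-fold above Arid2 (1.40 ± 0.101), in all 3 hearts. Summed by position in the complex, a grouping made after the values were seen, the 2 ATPases reached 114 ± 3.55 TPM, the 2 Smarcc scaffolds 108 ± 10.3, the 3 Smarcd subunits 181 ± 4.37 and the 3 Arid subunits 74.4 ± 7.13. Smarcb1 (SNF5), which has no paralog, was at 57.3 ± 0.847 TPM. Of 16 genes for accessory subunits, 14 were detected, led by Brd7 at 85.3 ± 4.25, Bcl7c at 56.9 ± 3.90 and Dpf2 at 51.6 ± 1.90 TPM. The 2 below detection were Actl6b and Dpf1, subunits known from neurons, at 0.0850 and 0.647 TPM, whereas the related Actl6a was at 37.2 TPM.

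**Figure D2:**
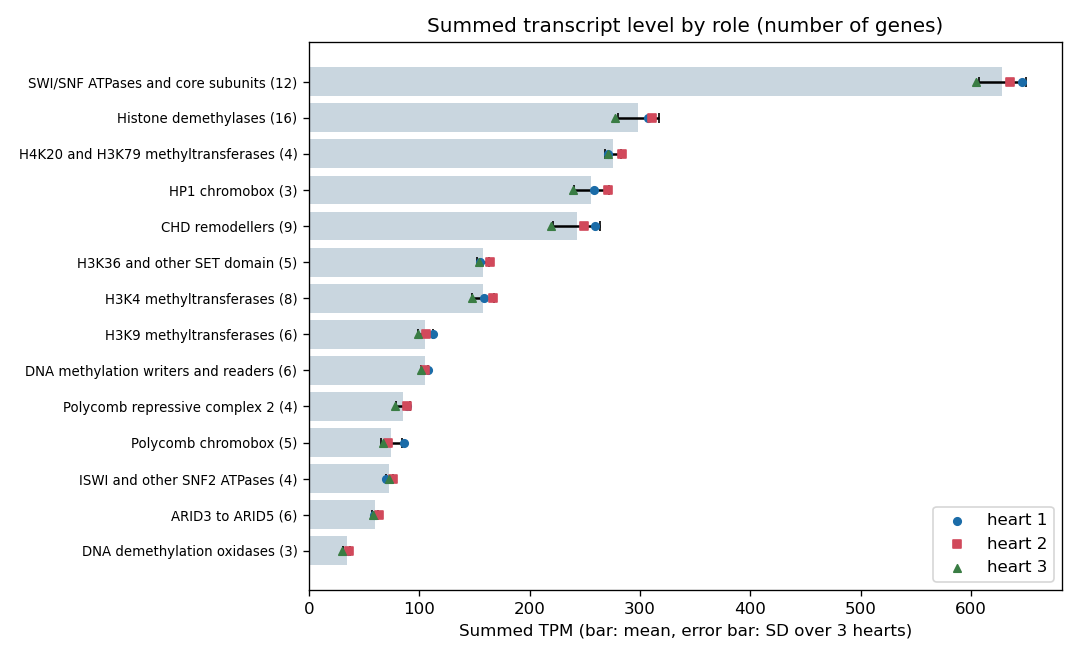
Summed TPM of the genes of each role: bars are means, error bars the SD over 3 hearts and points the single hearts, with the number of genes in parentheses. SWI/SNF genes sum to 628 TPM, and TET oxidases, labelled DNA demethylation oxidases, to 34.0 TPM.

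Among other SNF2-type ATPases, Smarca5 (SNF2H, the widely expressed ISWI motor) was at 29.4, 35.4 and 34.5 TPM and its paralog Smarca1 (SNF2L) at 4.30, 4.62 and 3.31 TPM. Smarca5 was 8.18-fold higher (log2 ratio 3.03 ± 0.317). Smarcal1, which rewinds DNA at stalled replication forks, was at 21.8 ± 1.36 TPM and Smarcad1 at 13.7 ± 1.36 TPM.

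CHD remodellers were led by Chd4, the ATPase of the NuRD repressor complex, at 115, 112 and 104 TPM. It was 3.68-fold above Chd3, the alternative NuRD motor (1.88 ± 0.110). Chd6 was next at 42.4, 34.8 and 27.1 TPM, the largest ratio of highest to lowest heart among members above 10 TPM, with heart 1 high and heart 3 low. Chd3 was at 33.1, 31.3 and 25.8 TPM and Chd8 at 24.7, 24.4 and 21.999 TPM. Chd8 exceeded Chd7, the gene mutated in CHARGE syndrome, by 2.59-fold (1.38 ± 0.208). Chd2 exceeded Chd1 by 1.73-fold, Chd6 exceeded Chd9 by 4.78-fold, and Chd5, known from brain and testis, had 23, 13 and 19 counts. All 18 genes listed for NuRD and other corepressors were detected, with the deacetylase Hdac2 at 117 ± 9.70, and the methyl-CpG-binding domain proteins Mbd2 at 111 ± 1.35 and Mbd3 at 107 ± 1.91 TPM.

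Cytosine methylation is maintained by Dnmt1 with its recruiter Uhrf1 and set anew by Dnmt3a and Dnmt3b. Dnmt3a had 34.1, 33.7 and 30.9 TPM and Dnmt1 29.2, 30.0 and 28.3 TPM. The ranges did not overlap, and Dnmt3a was 1.13-fold higher, a log2 ratio for Dnmt1 over Dnmt3a of -0.17 ± 0.0485. Dnmt3b was much lower at 3.03, 3.26 and 2.28 TPM, 11.6-fold below Dnmt3a (3.54 ± 0.201), and Dnmt3l, the catalytically inactive germ cell cofactor, had 3, 2 and 1 counts. Uhrf1 was at 23.6, 17.98 and 20.8 TPM and its paralog Uhrf2 at 17.7, 20.3 and 19.0 TPM. Uhrf2 was higher in heart 2 only, so the pair had no common order. Uhrf1 was lowest in heart 2. The replication genes Mcm2 (38.1, 34.6 and 39.96 TPM) and Mcm5 (23.4, 20.9 and 26.2 TPM) were lowest there too. Other genes did not share this order. Rrm2, of the same proliferation list, was highest in heart 2 (69.6, 77.4 and 62.7 TPM). The replication clamp Pcna was lowest in heart 1 (142, 145 and 153 TPM). The mitotic genes Mki67 and Ccnb1 were highest in heart 2 at 47.7 and 36.5 TPM.

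TET oxidases, a role of 3 genes, had the smallest summed TPM of any role, 1.33% of the level of all 91 genes. Without length scaling their share was 2.89%, above 4 other roles, the lowest then being Polycomb repressive complex 2 at 2.23%. Tet2 was at 15.3, 15.5 and 12.7 TPM and Tet3 at 15.3, 14.5 and 12.3 TPM, with a log2 ratio for Tet3 over Tet2 of -0.05 ± 0.0509 and no common order. Without length scaling Tet3 was the higher in all 3 hearts (0.21). Tet1, known from embryonic stem cells, was lower at 5.02, 6.20 and 5.08 TPM, 2.67-fold below Tet2 (1.42 ± 0.164). All 13 partner genes of DNA methylation were detected, among them the replication clamp Pcna at 146 ± 5.74, the repair glycosylase Tdg at 44.1 ± 0.842 and the remodeller Atrx at 31.3 ± 4.54 TPM.

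Polycomb repressive complex 2 methylates H3K27. Its core genes were close to each other: Ezh2 was at 27.4, 26.99 and 22.8 TPM, Suz12 at 24.7, 27.2 and 23.95, Eed at 18.2, 17.4 and 16.0, and Ezh1 at 18.6, 16.7 and 14.7. Ezh2, the enzyme of dividing cells, exceeded Ezh1, the form that predominates in non-dividing tissues, in all 3 hearts (1.54-fold, log2 ratio for Ezh1 over Ezh2 of -0.63 ± 0.0648). This order rests on length scaling, since without it the ratio was 0.083. With longest transcript lengths Ezh2 stayed the higher in all 3 hearts (-0.51). Suz12 exceeded Eed by 1.47-fold, while Ezh2 and Suz12 overlapped in range, as did Eed and Ezh1.

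Polycomb chromobox proteins carry the reader that binds H3K27 methylation in Polycomb repressive complex 1. Cbx6 was at 51.2, 39.2 and 37.4 TPM. Cbx2 (8.95, 8.18 and 6.998 TPM) and Cbx8 (7.59, 7.64 and 6.94 TPM) overlapped in range. Cbx7, the form of stem and many adult cells, was at 2.91, 1.78 and 1.31 TPM, 22.3-fold below Cbx6 (4.48 ± 0.347) and 3.89-fold below Cbx8. Both Cbx6 and Cbx7 were highest in heart 1 and had fractional counts. In the GENCODE annotation Cbx6 shares exon bases with Npcd on the same strand, 5.31% of its own, so some of its reads may have been divided between them.

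Of 22 Polycomb partner genes in the table, 21 were detected, and Epop, a modulator known from embryonic stem cells, was below detection at 0.873 TPM. The histone-binding subunits Rbbp7 and Rbbp4 led at 199 ± 5.13 and 136 ± 8.27 TPM, both above every one of the 4 core genes of complex 2. They are shared with NuRD and other complexes. Phc2, a Polyhomeotic subunit, followed at 66.8 ± 5.497 TPM.

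The HP1 proteins Cbx1, Cbx3 and Cbx5 bind H3K9 methylation at heterochromatin. Cbx3 (HP1 gamma; Entrez gene ID 12417, chromosome 6, 51470447 to 51483704 on the plus strand of GRCm38) was the highest of all 91 genes at 168, 171 and 156 TPM. It exceeded Cbx1 (HP1 beta) by 3.19-fold, with a log2 ratio of 1.67 ± 0.0234, the steadiest of the 39 pairs. Cbx1, at 51.7 ± 2.50 TPM, exceeded Cbx5 (HP1 alpha), at 39.3 ± 5.79 TPM, by 1.32-fold in all 3 hearts. Without length scaling Cbx5 was the higher of the pair (-1.71).

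The enzymes that write H3K9 methylation were led by Ehmt2 (G9a) at 52.2, 46.0 and 40.7 TPM, 1.81-fold above its partner Ehmt1 (GLP) at 26.4, 25.5 and 24.4 TPM. Setdb1, which silences retroelements with Trim28, was at 17.1 ± 0.460 TPM and 4.23-fold above Setdb2. Suv39h1 was at 11.1 ± 0.426 TPM and Suv39h2, known from testis and embryo, at 1.29, 1.62 and 1.33 TPM, the lowest of the detected members. Their ratio was 7.88-fold (2.98 ± 0.185). In the annotation, 14.6% of the exon bases of Suv39h1 are shared with an opposite-strand gene, Gm14820.

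**Figure D3:**
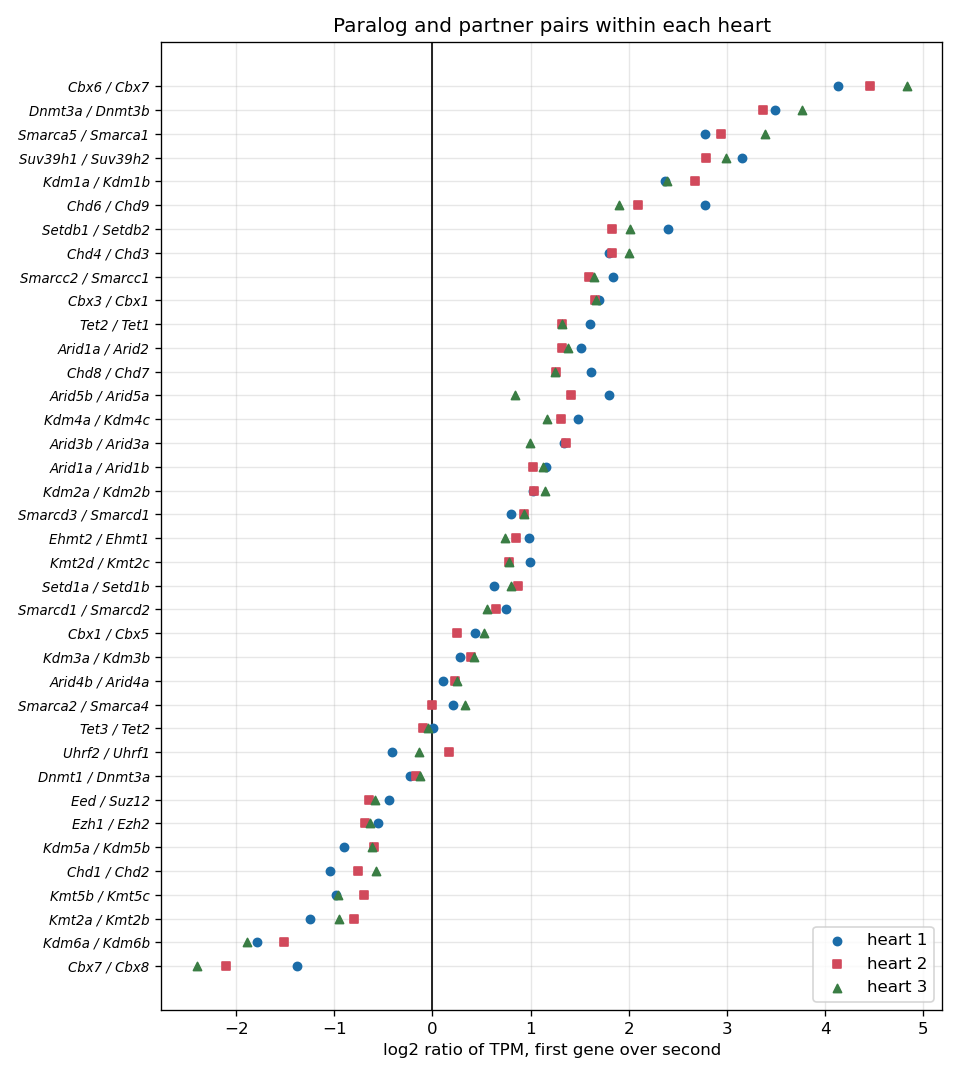
The log2 ratio of TPM (first gene over second) in each heart, for all but 1 of the 39 pairs. The 3 points of a pair shown fall on the same side of 0, the exceptions being Smarca2 and Smarca4, Tet3 and Tet2, and Uhrf2 and Uhrf1.

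H3K4 methylation at promoters and enhancers is written by the COMPASS-type enzymes. Kmt2b was at 24.4, 22.4 and 19.5 TPM and Setd1a at 22.7, 22.4 and 20.6 TPM, with overlapping ranges. Kmt2b exceeded Kmt2a (MLL1) by 2.00-fold, Kmt2d exceeded Kmt2c by 1.81-fold and Setd1a exceeded Setd1b by 1.70-fold, each in all 3 hearts. The first of these did not hold without length scaling, where the log2 ratio of Kmt2a over Kmt2b was 0.21 with no common order. Kmt2d, the enhancer enzyme mutated in Kabuki syndrome, which often includes heart defects, was at 15.6, 16.0 and 14.5 TPM. The highest genes of this role lie outside COMPASS: Kmt2e, a family member thought to lack enzyme activity, at 36.5 ± 3.78 TPM, and Setd7, a monomethylase of histone and other proteins, at 29.1 ± 2.67 TPM. All 13 COMPASS partner genes were detected, led by Dpy30 at 105 ± 6.78, Psip1 at 63.6 ± 1.25 and Wdr82 at 60.4 ± 2.83 TPM. Exons of Setd1a share 51.8% of their bases with Gm49388 on the same strand.

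Kmt5a, the H4K20 monomethylase (gene ID 67956, chromosome 5, 124439930 to 124462311), was the second highest of the 91 genes at 129, 140.5 and 144 TPM. The enzymes that add further methyl groups there were lower, Kmt5c at 47.5, 43.0 and 42.1 TPM and Kmt5b at 24.1, 26.5 and 21.6 TPM. Kmt5c exceeded Kmt5b by 1.84-fold. Without length scaling the log2 ratio of Kmt5b over Kmt5c was 0.082, with no common order. Dot1l, the H3K79 methyltransferase, whose loss in heart muscle is known to cause dilated cardiomyopathy in mice, was at 70.3, 73.7 and 63.9 TPM.

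Setd3, which methylates a histidine of actin, was at 77.2, 81.0 and 80.2 TPM, the highest of the remaining SET domain genes. Setd5 reached 39.0 ± 4.39 TPM and Setd2, the H3K36 trimethylase, 24.2 ± 1.76 TPM. Setd6 was at 11.9 ± 0.985 TPM and Setd4 at 4.03, 2.42 and 2.88 TPM. Of 13 lysine methyltransferases listed from other families, all detected, the muscle gene Smyd1 was far the highest at 411 ± 34.6 TPM, above Cbx3. Smyd2 followed at 175 ± 8.88 and Ash1l at 28.8 ± 2.88 TPM.

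Histone demethylases were represented by 16 genes, 15 of them detected, with a sum of 307, 311 and 277 TPM. Kdm1a (LSD1), which removes H3K4 methylation, led at 44.5, 47.0 and 39.4 TPM and was 5.57-fold above its paralog Kdm1b. Kdm2a (H3K36), Kdm4a (H3K9 and H3K36) and Kdm6b (H3K27) followed at 34.4 ± 1.76, 33.9 ± 2.55 and 33.6 ± 1.94 TPM, and neighbours in this order overlapped in range. Kdm4b, of the same family as Kdm4a, was at 22.6 ± 1.19 TPM. Kdm2a exceeded Kdm2b by 2.09-fold and Kdm4a exceeded Kdm4c by 2.50-fold.

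Kdm3a, a hypoxia-induced H3K9 demethylase, exceeded Kdm3b by 1.29-fold (0.37 ± 0.0749), an order that turned without length scaling (-0.32). With longest transcript lengths the pair had no common order (0.07). In the annotation 24.6% of the exon bases of Kdm3b are shared with the opposite-strand gene Gm26538. Kdm5b exceeded Kdm5a, both H3K4 demethylases, by 1.63-fold. Without length scaling the log2 ratio of Kdm5a over Kdm5b was 0.12, with no common order. Kdm6b exceeded its X-linked paralog Kdm6a (UTX) by 3.32-fold, with Kdm6a at 10.4, 11.4 and 8.78 TPM. Uty, the Y-linked counterpart of Kdm6a, was read in every heart at 10.3, 11.2 and 11.8 TPM. Kdm7a and Kdm8 were at 7.81 ± 0.648 and 3.93 ± 0.801 TPM, and Kdm4d, a testis gene, had 3, 1 and 1 counts.

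The remaining ARID genes encode DNA-binding proteins outside SWI/SNF. Arid4b and Arid4a, subunits of the Sin3 corepressor, were close at 15.7, 19.2 and 17.8 and 14.5, 16.3 and 15.02 TPM. Arid4b was 1.14-fold higher, in all 3 hearts. With longest transcript lengths this pair had no common order (log2 ratio 0.08). Arid5b was at 14.4, 13.9 and 11.5 TPM and Arid5a, an RNA-binding regulator of inflammatory transcripts, at 4.14, 5.20 and 6.40 TPM. Arid5a was highest in heart 3, which few members were. Arid3b exceeded Arid3a by 2.35-fold.

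Taking the 39 pairs together, fixed from known paralogs and partners with earlier results of these data known, 36 kept 1 order in all 3 hearts. The ratios are given without a test, since with 3 hearts the smallest p of an exact sign-flip test is 0.25. Within the 14 roles there were 77 pairs of neighbours in the order of mean level, and for 25 of them the ranges over the hearts overlapped.

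Whether any member differed between hearts was tested for all 13312 genes with a mean of 1 CPM or more. The edgeR goodness-of-fit test asks whether counts of a gene vary more than those of genes of like abundance, and p-values were adjusted over all genes tested. It called 202 genes, or 1.52%, of which 0 were among the 89 chromatin genes tested (all but Dnmt3l and Kdm4d). At an unadjusted edgeR p below 0.05 the count was 1, which was Chd6 (gene ID 71389, chromosome 2, 160946978 to 161109550), with an edgeR adjusted p of 0.809. Over all genes tested 696 (5.23%) passed that unadjusted limit. Of the 95 partner genes, 92 were tested and 0 were called by edgeR, with 2 at an unadjusted p below 0.05, Gadd45b and Zfp57, beside the same 5.23% of all genes. The count over all genes fell to 111 without heart 1, 138 without heart 2 and 93 without heart 3, with 0 chromatin genes each time. With 3 hearts a p that misses the threshold does not show that levels were equal.

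The median ratio of the highest to the lowest heart was 1.20 for the 88 detected members and 1.18 for all detected genes, and the median coefficients of variation were 9.36% and 8.83%. A ratio above 1.5 was found for 5 of the 88 (5.68%), against 11.7% of all. These 5 were Cbx7 (2.22), Setd4 (1.66), Arid3b (1.57), Chd6 (1.57) and Arid5a (1.54), and all but Chd6 had means under 10 TPM. Cbx7 (gene ID 52609, chromosome 15, 79915804 to 79971148), Setd4, Arid3b and Chd6 were highest in heart 1.

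**Figure D4:**
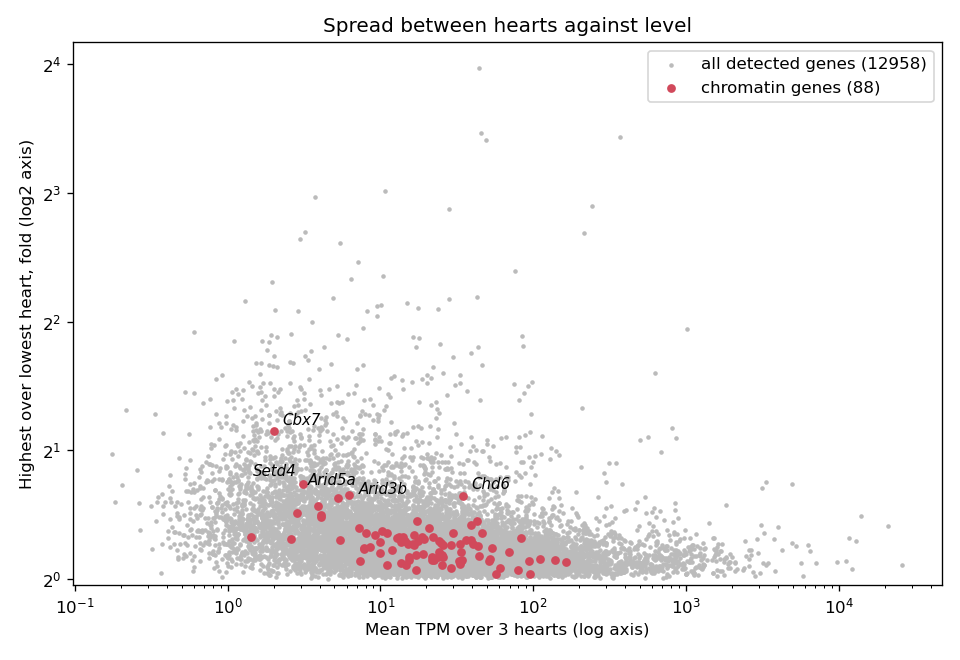
Ratio of the highest to the lowest heart (log2 axis) against mean TPM (log axis), with all 12958 detected genes in grey and the 88 detected chromatin genes in red. Most red points lie below 1.5-fold, and Cbx7 is the highest at 2.22-fold.

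Although no member passed the test, small differences ran in common directions, a pattern examined after the values were seen. Heart 3 was the lowest for 55 of 88 members (62.5%), against 46.0% of all detected genes, and the highest for 6 (6.82%), against 20.98%. With TMM-scaled CPM, which corrects for composition, it was the lowest for 45 (51.1%), against 32.0%. The median log2 ratio of heart 3 over heart 2 was -0.15 for members and -0.06 for all genes in TPM, and -0.08 and 0.00 in TMM-scaled CPM. The length implied by the deposited counts and FPKM had a median of 5152 bases for members against 2883 for all detected genes. Across the 88 members the ratio of heart 3 to heart 2 fell with length (Spearman rho -0.39, Pearson r with log2 length -0.36), and it did so across all 12958 genes (rho -0.32, r -0.24). These correlations are across genes of the same libraries, which are not independent replicates. The part of transcript length in the lower levels of heart 3 was not tested.

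Heart 1 was compared with the other hearts by base composition of the transcript, a comparison chosen after the values were seen. Across the 88 members the log2 ratio of heart 1 over the mean of hearts 2 and 3 rose with the GC content of the longest GENCODE transcript (Spearman rho 0.53, Pearson r 0.45), and more weakly across 12825 detected genes (rho 0.25, r 0.20). Of the 29 members with the lowest GC (38.7% to 47.2%), 8 were higher in heart 1, with a median log2 ratio of -0.06. Of the 30 with the highest GC (53.4% to 60.8%), 27 were higher in heart 1, with a median of 0.15, and with TMM-scaled CPM 24 were. These counts by GC were made for members only, so they do not set the members apart from other genes of like GC. The GC-rich Ehmt2, Setd1b and Kmt2b had log2 ratios of 0.27, 0.29 and 0.22, and the AT-rich Smarca5, Setdb2 and Kdm7a -0.25, -0.44 and -0.20. Arid5a, at 55.3% GC and -0.48, went against this order. So did the members with the lowest GC, Cbx3 (38.7%), Smarce1 (39.1%) and Smarca1 (39.5%), with log2 ratios of 0.04, 0.07 and 0.12. All points share the same 3 libraries, heart 1 is also the library with airway transcripts and with the lowest smooth muscle and pericyte sum (721 against 1295 and 1561 TPM), and the part of these or of GC content in the ratios was not tested.

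**Figure D5:**
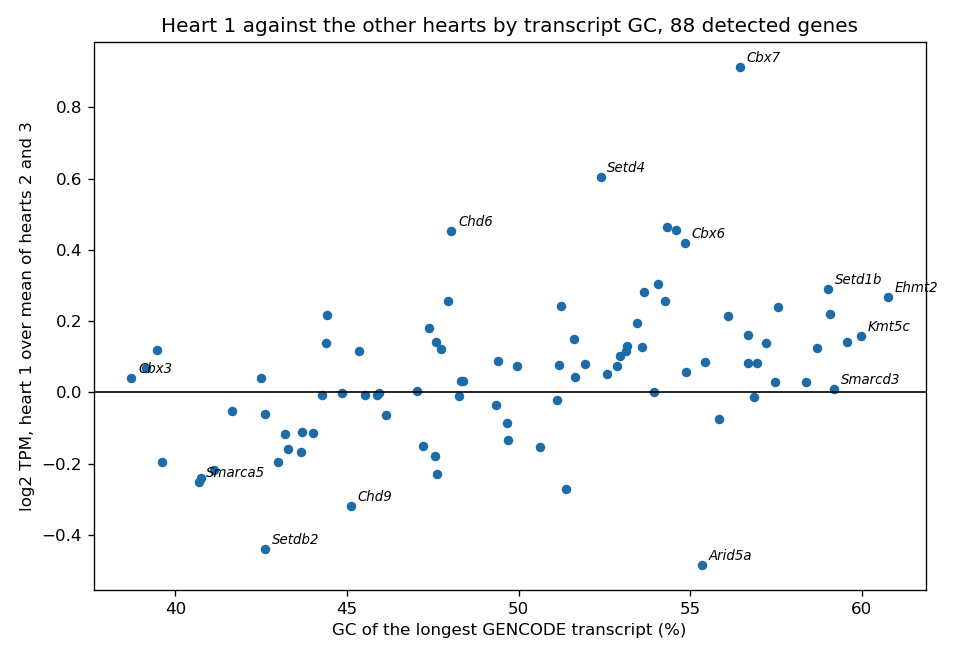
Log2 ratio of TPM in heart 1 over the mean of hearts 2 and 3 against GC content of the longest transcript, for the 88 detected genes, some of them labelled. Most genes above 53% GC lie above 0 and most below 47% lie under it, with Arid5a the lowest point at -0.48.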

How the data were processed

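Per the labels' protocols, Trizol was used to extract total RNA from the 3 wild-type hearts, and libraries were run on a DNBSEQ platform. The deposited table gives read counts and FPKM per gene and heart, per the file headers. Counts lay within 0.005 of a whole number for 87.5% to 87.6% of genes per heart and were fractional for the rest, so the deposited values were treated as estimated counts. The authors' FPKM were rescaled here to TPM. The submitters' processing notes name HISAT and GRCm38.p6. How reads were counted, on which annotation and with which strand setting is not given in the sources used here, so reads of overlapping genes cannot be told apart, and 4 members share over 10% of their exon bases with an opposite-strand gene. Positions are those of the table, whose starts matched RefSeq for 37 of 91 members. The authors' mean columns were not used.

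These counts were rounded to whole numbers and fitted with edgeR 4.0.16 (R 4.3.3), TMM scaling and an intercept only. The deviance of each gene was compared with the trended negative binomial dispersion, with Benjamini-Hochberg adjustment and a threshold of 0.05. The procedure was tested on simulated data, with known changes in a single heart. It recovered 49% of 2-fold and 97% of 4-fold changes, with 7 false calls (4.58% of calls), so many changes of 2-fold or less would be missed. The simulated counts were drawn with the same kind of trended dispersion that the test assumes. The false-call share therefore does not check how the test performs on the real hearts. Alternatives were DESeq2 1.42.0 size factors, other filters on low counts, a common dispersion, other length scalings, a pseudocount of 0.5 TPM and each heart left out. The members, 18 gene lists, 14 roles and 39 pairs were chosen with earlier results of these data known. Of 156 list entries, 155 matched by symbol, the exception being Ezhip. Named are all members by role, the 3 highest genes of each partner list and those not detected. Outside this rule, chosen after their values were seen, are Uty, Myl2, Actl6a, Scgb3a2, Acta2, Cd79a, Mcm2, Mcm5, Mki67, Ccnb1, Rrm2, Gadd45b and Zfp57. Depth was 17766501 to 18768094 counts per heart. Thymus genes (0 of 4), lymphocyte genes (1 of 4) and neuron and glia genes (3 of 4) were near background, and all 3 Y-linked genes were detected. Protein sequences were not used here. For 1 member, values of its own and of its pair are not reported here, though sums and counts include it.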

Additional observations from a re-analysis of the deposited data

How the results depend on the processing

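No paired analysis was possible because all 3 hearts form 1 group. No chromatin gene was called variable under any of the 7 alternatives run. The count over all genes was 149 to 260 with other filters, scaling or dispersion, and 93 to 138 with a heart left out, where fewer samples were tested. Members detected numbered 88 or 89 under each alternative. Without length scaling the order turned in all 3 hearts for Ezh1 over Ezh2 (0.083), Cbx1 over Cbx5 (-1.71) and Kdm3a over Kdm3b (-0.32). With longest transcript lengths it did so for Smarcd3 over Smarcd1 (-0.21). The mean ratio changed sign without length scaling, but with no common order, for Kmt2a over Kmt2b (0.21) and Kmt5b over Kmt5c (0.082). The same held for Kdm5a over Kdm5b (0.12) and Smarcd3 over Smarcd1 (-0.018). With longest transcript lengths Kdm3a over Kdm3b (0.07) and Arid4b over Arid4a (0.08) kept their sign but lost their common order. Among pairs with no common order under the authors' length scaling, Smarca2 over Smarca4 changed sign under both alternatives (-0.56 and -0.45). Tet3 over Tet2 did so without length scaling (0.21) and Uhrf2 over Uhrf1 without heart 1 (0.02). A further 23 of the 39 ratios moved by more than their SD with the same sign without length scaling, and 14 with longest transcript lengths. The SWI/SNF share was 18.9% without length scaling, still the largest of the 14 roles, and 12 of the other 13 shares moved by more than their SD. The lowest count in heart 3 for members, an alternative chosen after seeing the data, is given in the report on both scales. Depth limits Dnmt3l, Kdm4d and Chd5, with 1 to 23 counts a heart.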

Other observations

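Enzymes that write and remove the same mark were summed, a grouping chosen after the values were seen and given without a test. The 3 active DNA methyltransferase genes (Dnmt1, Dnmt3a and Dnmt3b) summed to 66.3, 67.0 and 61.5 TPM and the 3 TET genes to 35.6, 36.2 and 30.0 TPM, a log2 ratio of 0.94 ± 0.0833. For H3K27, Ezh1 and Ezh2 summed to 46.0, 43.7 and 37.5 TPM and Kdm6a and Kdm6b to 46.2, 43.9 and 41.3 TPM, a log2 ratio of -0.05 ± 0.0762. For H3K4, the 6 COMPASS enzymes summed to 91.8 ± 6.12 TPM and Kdm1a, Kdm1b, Kdm5a and Kdm5b to 77.7 ± 6.28 TPM, a log2 ratio of 0.24 ± 0.0335, in which Kdm5c is not counted. For H3K9, the 6 methyltransferase genes summed to 105 ± 6.61 TPM and the Kdm3 and Kdm4 genes, of which the latter also act on H3K36, to 114 ± 6.79 TPM, a log2 ratio of -0.11 ± 0.0458. All these sums use the authors' length scaling, and the ratios were not recomputed without it, so they may depend on it. Transcript sums say nothing of protein or enzyme activity.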
